A study of Mus musculus with 16 samples.

Results

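Fatty acid synthesis, elongation and desaturation were followed through 10 genes in mouse corpus callosum. They were Fasn, Acsl1, Scd1, Scd2, Fads1, Fads2, Elovl1, Elovl5, Elovl6 and Elovl7. All probes whose accession mapped to these symbols were taken, which gave 15 of the 41174 probes on the array and 10 of 32110 genes or unnamed targets. The array holds 1 probe each for Scd1, Scd2, Fads1, Fads2, Elovl1 and Elovl6. Elovl5, Elovl7 and Fasn have 2 probes each, and Acsl1 has 3.

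Mice fed cuprizone (CPZ), a compound that binds copper, lose myelinating cells and then their myelin sheaths, and remyelinate once normal food is restored. The 16 single-colour arrays each measured callosal RNA from male wild-type C57BL/6 mice, aged 7 to 8 weeks on entry per the study's methods, with no transgene or other genetic change. There were 3 arrays of untreated mice, 3 after 2 weeks of CPZ and 4 after 4 weeks of CPZ. CPZ was given in powdered chow, at 0.2 to 0.4% per the labels and at 0.2% per the study's methods. A further 6 arrays came from mice returned to a regular diet after 4 weeks of CPZ. Per the study the untreated mice matched the 4-week group in age, and the regular diet lasted 2 or 14 days, with 3 arrays for each. The labels do not say which regular diet array belongs to which time, so the 6 were kept as 1 group. The methods speak of 3 to 6 mice per condition, and nothing in the labels says whether an array came from 1 animal or a pool, so the p-values measure only the spread between these arrays.

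Fatty acid synthase builds palmitate from acetyl and malonyl units. Elongases of the Elovl family then lengthen the chain, desaturases of the Scd and Fads families add double bonds, and acyl-CoA synthetases such as Acsl1 attach the coenzyme A that these steps and lipid assembly require. Myelin is a lipid-rich membrane with a high content of very long saturated and monounsaturated chains, and myelinating oligodendrocytes make most of them locally. Transcription of many of these genes is under the control of the sterol regulatory element binding proteins, liver X receptors and cofactors such as NF-Y.

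Values are log2 signals after the 75th percentile of the same array was subtracted, so 0 is that percentile, and a level can be followed between arrays but not between probes. All 15 probes were well above background on all 16 arrays. Between 57.3 and 72.2% of all probes were well above background on an array. The scanner files and the authors' value table disagreed on which array is which sample. Each scanner file matched exactly 1 column of the value table (r = 1 over 21976 probes, next best at most 0.8829), but for 14 of 16 columns this was a file recorded under another sample, 13 of them in another group. The column labels were followed, because the table's values have a control median of 0 for 100% of probes on the 3 columns labelled untreated and for at most 52.1% on any other of the 560 possible triples. With the arrays as recorded instead, 1 member at 2 weeks, 4 at 4 weeks and 10 on regular diet lay below untreated, so most directions given below for the CPZ groups rest on the column labels.

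Markers of the labelled tissue were present. The 11 myelin genes measured (such as Mbp and Mog) had a summed level of 9.30 to 10.39 on the untreated arrays, 5.03 to 8.10 after 2 weeks, 5.48 to 8.56 after 4 weeks and 6.63 to 10.31 on regular diet. On regular diet the median of the myelin genes relative to the untreated mean was -3.69, -3.45 and -2.83 on arrays 1 to 3 and -0.06, 0.02 and 0.65 on arrays 4 to 6. The 8 microglia and macrophage genes stood at medians of 3.56 and 3.79 on regular diet arrays 1 and 2, against 0.56 to 0.81 on the other regular diet arrays and -0.36 to 0.60 on untreated arrays. The 6 choroid plexus and ependyma genes, a sign of dissection, ranged within every group. Within the 4-week group their summed level ran from 0.56 to 5.70 and their median relative to the untreated mean from -2.10 to 3.11.

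No member passed the threshold of a call, a Benjamini-Hochberg adjusted p from limma under 0.05 with at least a 2-fold change, in any of the 5 comparisons. Among all genes, each read through its brightest probe, 0.211% were called at 2 weeks, 0.167% at 4 weeks and 0.854% on regular diet, all against untreated. The members lay largely on the lower side all the same. At 2 weeks 9 of 10 had a mean below untreated, with a median log2 difference of -0.81, against 0.05 over all genes tested. By unadjusted p under 0.05, 7 members were lower and 0 higher at 2 weeks, where 5.03% of all genes were lower and 4.5% higher by that rule. On 6 members (Fasn, Acsl1, Scd2, Elovl1, Elovl6 and Elovl7) each of the 3 arrays at 2 weeks read below each untreated array, as did 8.64% of all genes.

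At 4 weeks 9 of 10 members again had a mean below untreated, with a median of -0.63 against -0.04 over all genes. By unadjusted p, 7 were lower and 1 higher, where 4.83% of all genes were lower and 5.19% higher. On 5 members (Fasn, Acsl1, Scd1, Elovl1 and Elovl6) every array at 4 weeks read below every untreated array, as did 4.44% of all genes. That count was 2 after normexp background correction (4.37% of all genes), 0 after scaling arrays to their median (2.03%), which moved the median of all genes by 0.12, and 7 after quantile normalization (4.58%). Both CPZ comparisons share the 3 untreated arrays. Beside these values at 2 weeks, 5 of 8 microglia and macrophage genes had means above untreated (median 0.33), of which Tyrobp (1.83) and Trem2 (1.51) did not overlap it, and 5 of 6 choroid plexus and ependyma genes did (median 0.17). Of 7 astrocyte genes 4 were above untreated and 3 below, and Gfap (1.18), Slc1a3 (1.05) and Aldh1l1 (0.63) were higher with no overlap. All 5 genes of the oligodendrocyte precursor list were below, Bcas1 (-1.97) and Sox10 (-1.08) with no overlap. No gene of these lists was called, and their part in the members' values was not tested.

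**Figure D1:**
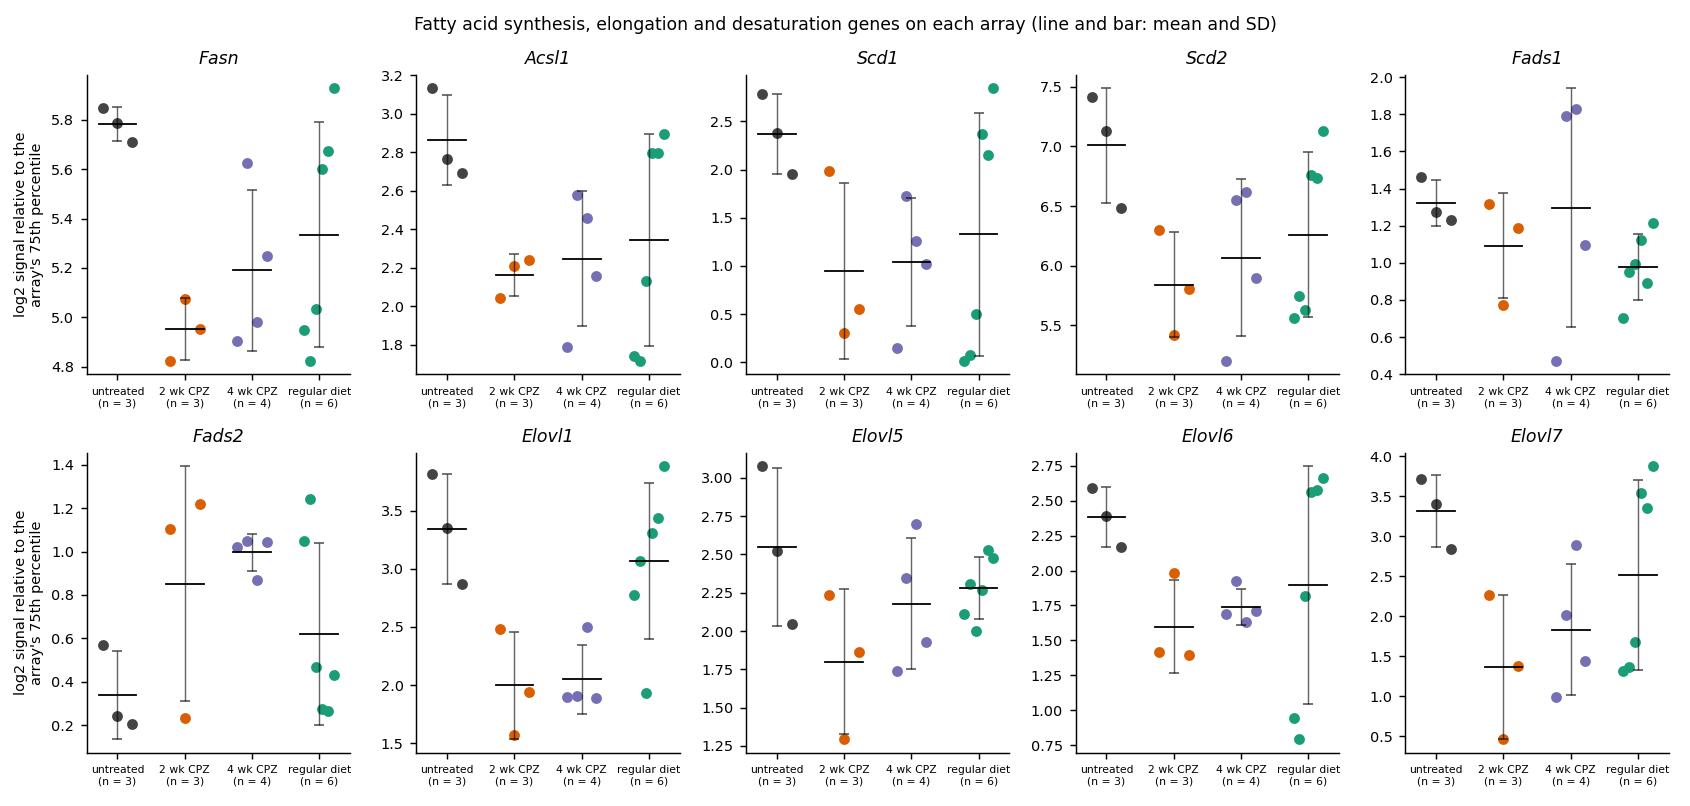
Level of each of the 10 genes on every array, through its brightest probe (y axis, log2 signal with the 75th percentile of its array set to 0, own scale in each panel; points, arrays in replicate order; line and bar, mean and SD). Fasn reads 5.71 to 5.85 on untreated arrays and 4.83 to 5.08 after 2 weeks of CPZ, and Scd1 spans 0.02 to 2.85 on regular diet.

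Fasn, the multidomain synthase that makes palmitate, was among the least variable members in untreated callosum. Its brightest probe read 5.85, 5.79 and 5.71 on the untreated arrays and 4.83, 5.08 and 4.96 after 2 weeks of CPZ. The groups did not overlap, and the mean log2 difference was -0.83 ± 0.22 (SE), a fold of 1.78, with an adjusted p of 0.159 by limma. After 4 weeks the arrays read 4.90, 5.62, 4.98 and 5.25, a mean difference of -0.59 ± 0.20 (SE; adjusted p = 0.31 by limma). Array 2 of that group came within 0.1 of the lowest untreated array, and the others lay well below it. On regular diet Fasn ran from 4.83 through a median of 5.32 to 5.93, so it spanned both the CPZ and the untreated ranges. The dimmer second probe gave the same order, with -0.62 at 2 weeks and -0.52 at 4 weeks, and neither CPZ group overlapped the untreated arrays on it.

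Promoter sequences (250 bases before to 50 after a transcription start, RefSeq, GRCm38.p6) were held for 7 of the 10 members, 9 promoters in all. They were searched on both strands for the sterol regulatory element TCACNCCAC, the NF-Y element CCAAT and the E-box CACGTG. The 3 member promoters with the most matches are printed here to show where the matches lie, with matches in capitals on either strand.
Fasn, chr11:120824498-120824797, - strand: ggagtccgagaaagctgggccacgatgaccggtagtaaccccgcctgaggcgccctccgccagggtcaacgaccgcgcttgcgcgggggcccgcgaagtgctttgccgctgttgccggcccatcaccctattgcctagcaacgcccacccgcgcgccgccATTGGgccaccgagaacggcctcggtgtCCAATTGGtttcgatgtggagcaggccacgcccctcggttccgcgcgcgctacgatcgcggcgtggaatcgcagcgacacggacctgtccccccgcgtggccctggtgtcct
Acsl1, chr8:46490716-46491015, + strand: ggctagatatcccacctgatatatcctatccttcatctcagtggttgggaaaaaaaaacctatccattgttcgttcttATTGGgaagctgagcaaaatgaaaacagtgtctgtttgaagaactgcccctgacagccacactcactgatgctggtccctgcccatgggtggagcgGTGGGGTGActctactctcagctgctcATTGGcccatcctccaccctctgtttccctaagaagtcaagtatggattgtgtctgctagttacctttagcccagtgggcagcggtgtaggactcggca
Elovl5, chr9:77917115-77917414, + strand: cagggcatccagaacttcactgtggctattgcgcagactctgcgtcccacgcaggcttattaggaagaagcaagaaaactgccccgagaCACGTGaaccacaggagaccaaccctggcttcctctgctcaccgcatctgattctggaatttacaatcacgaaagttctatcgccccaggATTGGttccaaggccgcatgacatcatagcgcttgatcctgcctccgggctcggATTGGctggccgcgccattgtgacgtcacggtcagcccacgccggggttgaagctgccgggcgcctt

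The Fasn promoter holds CCAAT 3 times, and 2 of these matches overlap on opposite strands. The second Acsl1 promoter holds the only sterol regulatory element among the 9, on the reverse strand, with 2 CCAAT matches. The Elovl5 promoter holds 2 CCAAT matches and the only E-box. The NF-Y element was present in 4 of the 9 promoters, the last being 1 of 2 for Elovl1, against 37.4% of all 32851 promoters. The sterol element was present in 1.24% of all promoters and the E-box in 7.15%. A match is a stretch of letters and was not tested for binding.

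Acsl1, which activates long-chain fatty acids with coenzyme A, had the most even readings at 2 weeks. Its brightest probe read 3.13, 2.76 and 2.69 untreated and 2.04, 2.21 and 2.24 after 2 weeks, with no overlap. The mean difference was -0.70 ± 0.24 (SE; adjusted p = 0.314 by limma). Its other probes gave -0.97 (adjusted p = 0.0861 by limma, the lowest of any member probe at 2 weeks) and -1.10, also with no overlap. After 4 weeks the brightest probe read 1.79, 2.58, 2.46 and 2.16, a mean difference of -0.62 ± 0.22 (SE; adjusted p = 0.352), all arrays still below the untreated ones. All 3 probes therefore pointed the same way in both CPZ groups. The regular diet arrays ran from 1.72 through 2.46 to 2.89, overlapping all other groups.

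Scd1 and Scd2 are stearoyl-CoA desaturases, which put the first double bond into saturated chains and so supply oleate. Scd1 read 2.79, 2.38 and 1.95 untreated, and 1.99, 0.30 and 0.55 after 2 weeks. The first 2-week array lay just above the lowest untreated array and the other 2 far below, so the groups overlapped. The mean difference was -1.43 ± 0.51 (SE), a fold of 2.69, with an adjusted p of 0.355 by limma. After 4 weeks Scd1 read 0.14, 1.73, 1.26 and 1.02, all below the untreated arrays, with a mean difference of -1.33 ± 0.48 (SE; adjusted p = 0.348).

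Scd2 has a single probe with bright signal, at 7.42, 7.13 and 6.48 on untreated arrays. After 2 weeks it read 6.30, 5.42 and 5.80, which is below every untreated array, with a mean difference of -1.17 ± 0.42 (SE; adjusted p = 0.358 by limma). After 4 weeks it read 5.20, 6.55, 6.62 and 5.90, and arrays 2 and 3 passed the lowest untreated reading. The mean difference was -0.94 ± 0.39 (SE; adjusted p = 0.448). Scd1, Scd2 and Scd3 are close paralogs, and whether their probes cross-hybridise was not tested.

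On regular diet Scd1 had the widest spread of the members beside Elovl7. Its 6 arrays read 0.02, 0.08, 0.50, 2.37, 2.15 and 2.85, with an SD of 1.27 against 0.42 in untreated callosum. Scd2 read 5.56, 5.74, 5.63, 6.76, 6.74 and 7.13. For both desaturases arrays 1 to 3 were within or below the CPZ range and arrays 4 to 6 lay within the untreated range or just above it. The means differed from untreated by -1.05 ± 0.64 (SE; adjusted p = 0.553 by limma) for Scd1 and -0.75 ± 0.41 (SE; adjusted p = 0.52) for Scd2. The myelin gene list split the same arrays the same way, and its part in these values was not tested.

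Fads1 and Fads2 are the front-end desaturases of polyunsaturated fatty acid synthesis. In both CPZ groups Fads2 had the highest mean difference of the members and Fads1 the next highest. No test compared members, and the Fads1 interval at 2 weeks includes the differences of Fasn (-0.83), Elovl6 (-0.78), Elovl5 (-0.75) and Acsl1 (-0.70). Fads1 read 1.46, 1.27 and 1.23 untreated, 1.32, 0.77 and 1.19 after 2 weeks, and 0.47, 1.79, 1.83 and 1.09 after 4 weeks. The groups overlapped, with mean differences of -0.23 (95% interval -1.02 to 0.57) and -0.03 (-0.77 to 0.72). The intervals leave room for changes near 2-fold in the lower direction at 2 weeks. On regular diet Fads1 ran from 0.70 through 0.97 to 1.22 and was the only member with every array below every untreated one, where 3.49% of all genes were. The mean difference there was -0.34 ± 0.26 (SE; adjusted p = 0.602 by limma), and under quantile normalization or normexp no member was separated in this way.

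Fads2 was the only member whose mean lay above untreated in both CPZ groups. It read 0.57, 0.24 and 0.20 untreated, 1.1, 0.23 and 1.22 after 2 weeks, and 1.02, 1.05, 0.87 and 1.05 after 4 weeks. All 4 arrays at 4 weeks exceeded all 3 untreated arrays, as did 5.31% of all genes. The mean difference was 0.66 ± 0.25 (SE), a fold of 1.58, with an adjusted p of 0.376 by limma. At 2 weeks array 2 stayed within the untreated range, and the mean difference was 0.51 ± 0.27 (SE; adjusted p = 0.661). On regular diet Fads2 read 1.05, 1.24, 0.47, 0.27, 0.27 and 0.43, so arrays 1 and 2 were at or above the 4-week level and the other 4 lay within the untreated range. Those 2 arrays are the ones with the microglia and macrophage genes highest, and the part of these cells in the Fads2 level was not tested.

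Elovl7 elongates saturated long chains. Its brighter probe read 3.72, 3.40 and 2.84 untreated and 2.26, 0.47 and 1.37 after 2 weeks. The groups did not overlap, but the 2-week arrays spread over more than the untreated ones. The mean difference was -1.95 ± 0.56 (SE), a fold of 3.87, with an adjusted p of 0.205 by limma, and the second probe gave the same value to 2 decimals. After 4 weeks it read 0.99, 2.01, 2.90 and 1.44, a mean difference of -1.48 ± 0.52 (SE; adjusted p = 0.339). Array 3 at 4 weeks passed the lowest untreated array on this probe, while on the second probe (-1.65) all 4 arrays stayed below. On regular diet Elovl7 read 1.32, 1.36, 1.68, 3.54, 3.35 and 3.87, in the same arrangement as Scd1.

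Elovl1 makes very long saturated and monounsaturated chains for sphingolipids. It read 3.81, 3.35 and 2.87 untreated, 2.48, 1.57 and 1.94 after 2 weeks, and 1.90, 1.91, 2.50 and 1.89 after 4 weeks. Every CPZ array was below every untreated array. The mean differences were -1.35 ± 0.32 (SE), a fold of 2.54, at 2 weeks and -1.30 ± 0.30 (SE), a fold of 2.46, at 4 weeks. Their adjusted p-values by limma, 0.131 and 0.118, were the lowest among the members' brightest probes.

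On regular diet Elovl1 did not follow Scd1 and Elovl7. It read 2.77, 3.07, 1.93, 3.31, 3.44 and 3.88, so arrays 1 and 2 lay above every CPZ array and array 3 alone stayed at the CPZ level. The mean was 1.02 ± 0.33 (SE) above the 4-week group on the log2 scale, a fold of 2.03. This was the only member with an unadjusted p under 0.05 in that comparison, where 15.5% of all genes were higher and 11.1% lower by that rule and 0.00485% were called, and its adjusted p was 0.11 by limma. Arrays 1 and 2 also carried the highest microglia and macrophage signal, whose part in this level was not tested.

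Elovl6, which takes palmitate to stearate, read 2.59, 2.39 and 2.17 untreated, 1.42, 1.98 and 1.40 after 2 weeks, and 1.69, 1.92, 1.63 and 1.71 after 4 weeks. No CPZ array reached an untreated one. The mean differences were -0.78 ± 0.22 (SE; adjusted p = 0.182 by limma) and -0.64 ± 0.20 (SE; adjusted p = 0.256). On regular diet it read 0.94, 0.80, 1.82, 2.56, 2.58 and 2.66. Arrays 1 and 2 were below every CPZ array, so among the elongases Elovl6 and Elovl1 ran in opposite directions on these 2 arrays.

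Elovl5 elongates polyunsaturated chains and showed overlapping groups throughout. It read 3.07, 2.52 and 2.04 untreated, 2.24, 1.30 and 1.86 after 2 weeks, and 1.74, 2.35, 2.70 and 1.93 after 4 weeks. The mean differences were -0.75 (95% interval -1.56 to 0.07) and -0.37 (-1.13 to 0.40), which do not exclude changes past 2-fold. On regular diet it stayed between 2.00 and 2.53, one of the narrowest ranges of the members. Its second probe gave -0.55 and -0.24 in the CPZ groups.

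**Figure D2:**
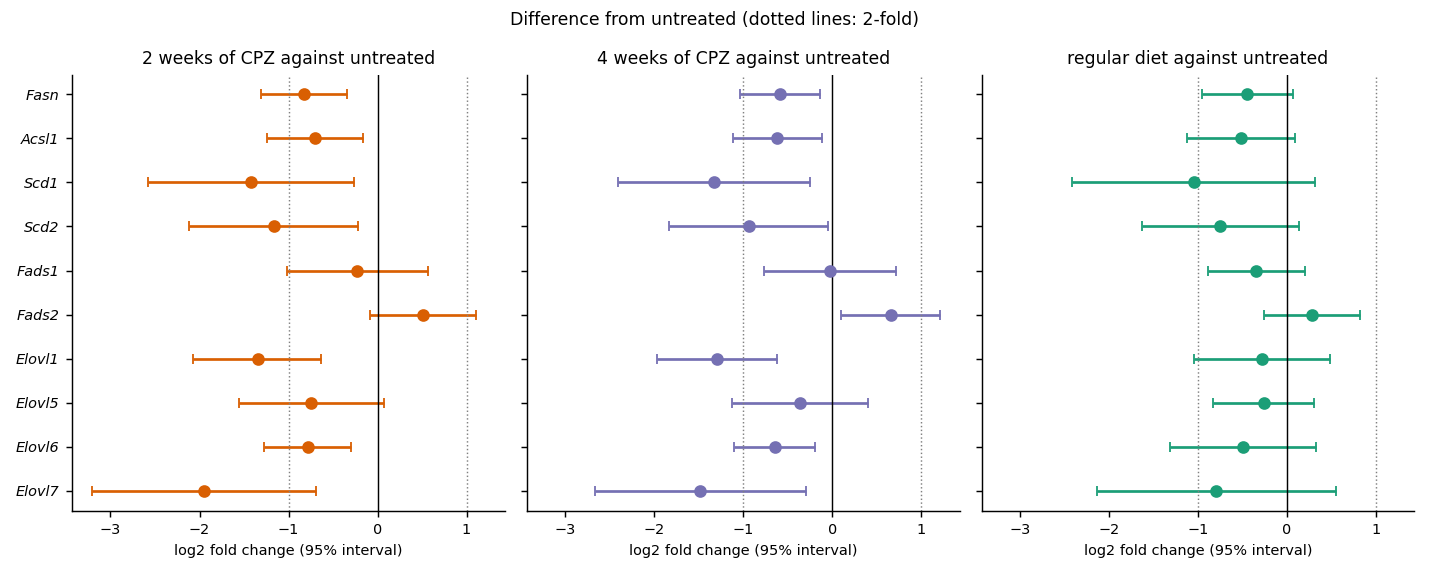
Log2 fold change of each gene against untreated (x axis) with its 95% interval from limma, for 2 weeks of CPZ, 4 weeks of CPZ and regular diet; dotted lines mark 2-fold. At 2 weeks the points run from -1.95 for Elovl7 to 0.51 for Fads2, and on regular diet every interval includes 0.

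Between 4 and 2 weeks of CPZ all 10 members had a slightly higher mean at 4 weeks, from 0.05 for Elovl1 to 0.47 for Elovl7, with a median of 0.17 against -0.02 over all genes. None had an unadjusted p under 0.05, while 6.38% of all genes were lower and 4.92% higher by that rule and 0.0147% were called. The lowest adjusted p of a member was 0.624 by limma. The groups overlapped on the brightest probe of all 10, whereas 9.41% of all genes were fully lower and 5.82% fully higher. The sign turned under another scaling, array weights or a left-out array for Scd1, Scd2, Elovl1, Acsl1, Fads1 and Fads2, and with arrays as recorded no member was higher at 4 weeks.

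Against untreated, the regular diet group had 9 of 10 members below 0 and a median of -0.47, against -0.01 over all genes. After normexp the medians were -0.30 and -0.16, and with array weights Elovl1, Elovl5, Elovl6 and Elovl7 turned to between 0.04 and 0.15, which left 5 members below 0. None had an unadjusted p under 0.05, where 4.3% of all genes were lower and 6.28% higher by that rule, and the adjusted p-values ran from 0.518 to 0.729 by limma. Fads2 alone was above, at 0.28. Against 4 weeks of CPZ 8 of 10 members were higher, with a median of 0.15 against 0.03 over all genes, and apart from Elovl1 the intervals all included 0. Median scaling and the replicate block each turned 6 of these 8 signs and left only Elovl1 and Elovl7 higher, and with arrays as recorded all 8 were lower. The regular diet arrays pool unlabelled times, and the wide spread of Scd1, Elovl6 and Elovl7 (SDs of 1.27, 0.85 and 1.19) enters these tests.

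Arrays were hybridised 4 to a slide, and each slide held arrays of 3 groups. Slide 1 was the only slide with both 2-week and untreated arrays. Within it 9 of 10 members were lower at 2 weeks, from -0.21 for Fads1 to -1.90 for Elovl7, and Fads2 was 0.59 higher. Its 1 untreated array, array 1, had a members' median of 0.33 relative to the untreated mean, against 0.01 and -0.32 on arrays 2 and 3. Within slides 2 and 3, 4-week arrays differed from the untreated array by -0.80 and -0.81 for Fasn on the log2 scale, by -0.85 and -0.97 for Elovl1 and by -1.12 and -1.81 for Scd1. Elovl5 and Fads1 had opposite signs on these slides. With slide as a fixed block the members ran from -2.10 for Elovl7 to 0.33 for Fads2 at 2 weeks and from -1.21 for Scd1 to 0.89 for Fads2 at 4 weeks, and no member was called. For regular diet against untreated, 3 slides gave -0.92 to -0.42 for Scd1 and -0.50 to 0.24 for Elovl1, and against 4 weeks 0.03 to 1.21 for Elovl1.

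The lowest array of each group was compared between the members and the myelin genes. In each of the 4 groups the array with the lowest myelin list was also the lowest for Scd1, Scd2, Elovl7 and Fads1. This held in 3 groups for Elovl5, in 2 for Fasn, Acsl1, Elovl1 and Fads2, and in 1 for Elovl6. The count rests on the lowest arrays alone and does not rank how closely a member followed the myelin genes. On regular diet Elovl6 was lower on arrays 1 to 3 (0.80 to 1.82) than on arrays 4 to 6 (2.56 to 2.66), as the myelin genes were. Fads1 was not split there, with 0.99 on array 3 and 0.89 on array 5. All 11 myelin genes were lower than untreated at 2 weeks with no overlap (median -3.30), and 10 of 11 at 4 weeks (median -2.75), though 0 of the 11 were called in either. The members' medians of -0.81 and -0.63 lay closer to 0. In bulk tissue fewer oligodendrocytes and less RNA per oligodendrocyte cannot be told apart.

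**Figure D3:**
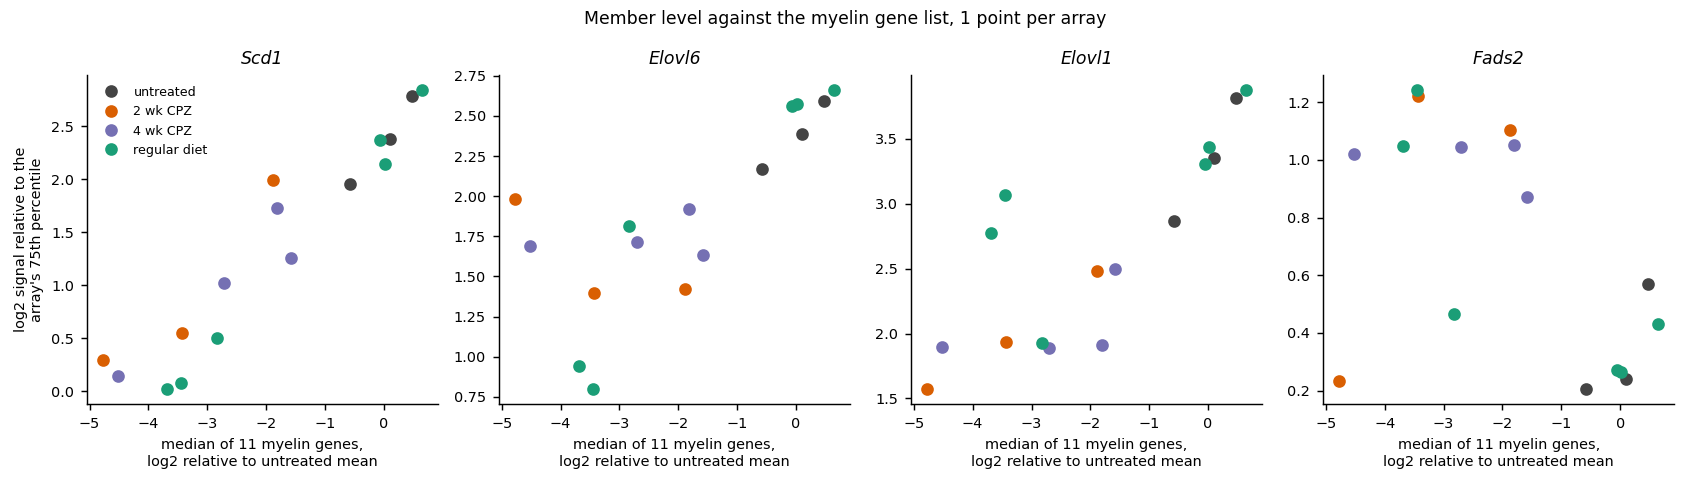
Level of Scd1, Elovl6, Elovl1 and Fads2 (y axis, log2 signal with the 75th percentile of its array set to 0) against the median of 11 myelin genes on the same array (x axis, log2 relative to the untreated mean), 1 point per array, coloured by group. Scd1 is higher where the myelin genes are higher, Elovl1 is at 2.77 and 3.07 on the regular diet arrays with myelin medians of -3.69 and -3.45, and Fads2 is at 0.23 on the array with the lowest myelin genes and at 1.05 and 1.24 on those regular diet arrays.

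Across the 16 arrays Pearson r over all 45 pairs of members ran from -0.804 to 0.947 with a median of 0.651. The 28 pairs without Fads1 and Fads2, which were set aside after their values were seen, ran from 0.35 (Elovl5 and Elovl6) to 0.947 (Scd2 and Elovl7) with a median of 0.808. Fads1 had r from 0.153 with Elovl1 to 0.651 with Scd2 among these 8 members. Fads2 was negatively correlated with 8 of the 9 other members, down to -0.804 with Elovl6. These values describe arrays that share group differences and myelin gene levels, and genes on 1 array are not independent. Of 13934 named genes, the closest to Scd1 were S1pr5 (0.987), a sphingosine phosphate receptor, Car2 (0.982), a carbonic anhydrase, and Serpind1 (0.973). Closest to Scd2 were St3gal4, Ermp1 and Aif1l (0.984 to 0.98), and to Elovl7 St6galnac3, Lpar1 and Slc44a1 (0.986 to 0.984). Fasn lay nearest to Epb41l3, Kazn and Aatk (0.963 to 0.96), Elovl6 to Tppp, Rab33a and Bace1 (0.957 to 0.944), and Acsl1 to Larp6, Sqle and Aplp1 (0.977 to 0.971). Sqle is squalene epoxidase of the cholesterol pathway.

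Other neighbours were of different kinds. Elovl1 lay nearest to Depdc1b, Foxn3 and Cep72 (0.961 to 0.959) and Elovl5 to Tkt, Rassf2 and Phgdh (0.949 to 0.943), of which Tkt is transketolase and Phgdh the entry enzyme of serine synthesis. Fads1 lay nearest to Selenot, Fjx1 and Dstn (0.924 to 0.91). Fads2 lay nearest to Ltb4r1, a leukotriene receptor, Eci3, an enoyl-CoA isomerase, and Angptl4, an inhibitor of lipoprotein lipase (0.919 to 0.875).

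Genes around the members were read from 5 lists. Of the 12 regulators tested, Insig1 was the only one called, and the only called gene of all 5 lists. Insig1, an endoplasmic reticulum protein that holds back sterol regulatory element binding proteins and is itself one of their targets, read 0.24, 0.15 and 0.08 untreated and -1.02, -1.61 and -1.23 after 2 weeks. It fell by 1.44 ± 0.20 (SE) on the log2 scale, with an adjusted p of 0.0357 by limma. The call held under 11 of 25 alternatives and was lost without any single untreated or 2-week array or without 4-week array 4 (adjusted p = 0.0545 to 0.165). It was also lost with slide as a fixed block (-1.59, adjusted p = 0.0608), with the replicate block (0.25), with median scaling (0.138), in fits of 2 or of all 4 groups (0.127 and 0.373) and by the methods' test (0.0959), and with arrays as recorded the difference was 0.43. All 4 arrays at 4 weeks also lay below the untreated ones, from -1.13 to -0.73. At 4 weeks its difference was -1.10 (adjusted p = 0.0635) and on regular diet -1.02 (adjusted p = 0.463), where arrays read -1.82, -1.78, -1.85, -0.15, -0.14 and 0.54, split as Scd1 was. The genes for the binding proteins themselves read -0.67 for Srebf2 and 0.31 for Srebf1 at 2 weeks. Mlxipl, the carbohydrate-responsive factor, and Nr1h3, a liver X receptor, were the highest, at 1.06 and 0.55, neither past the threshold. The median of the list was 0.08.

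The Insig1 promoter is printed because it belongs to the only called gene of the lists, with capitals as above. It holds 1 CCAAT match and 1 E-box, and no sterol regulatory element in this window.
Insig1, chr5:28071162-28071461, + strand: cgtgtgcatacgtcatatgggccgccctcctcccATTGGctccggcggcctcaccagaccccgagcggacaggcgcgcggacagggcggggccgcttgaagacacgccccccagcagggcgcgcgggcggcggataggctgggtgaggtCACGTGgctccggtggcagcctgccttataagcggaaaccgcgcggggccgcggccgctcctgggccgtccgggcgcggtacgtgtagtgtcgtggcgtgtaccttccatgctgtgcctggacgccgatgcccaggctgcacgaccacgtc

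Of 11 genes of acetyl supply and chain synthesis, 8 were below untreated at 2 weeks and 0 were called, with a median of -0.19. The lowest were Slc25a1, the mitochondrial citrate carrier, at -1.09 and Acss2, which makes acetyl-CoA from acetate, at -0.68. The highest were Mecr and Acacb, at 0.41 and 0.27. Of 14 other elongation, desaturation and hydroxylation genes tested, 9 were below and 0 called, with a median of -0.13. Fa2h, which hydroxylates the fatty acids of myelin galactolipids, stood at -3.44 (adjusted p = 0.11 by limma) and Scd3, a further stearoyl-CoA desaturase, at -1.77 (adjusted p = 0.071). Fads3 was the highest, at 0.48, followed by Cyb5r3, which feeds electrons to the desaturases, at 0.17.

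Of 11 genes of activation, binding and uptake, 6 were below and 0 called, with a median of -0.04. Slc27a4 and Slc27a1, fatty acid transport proteins, were lowest at -0.72 and -0.38. Lpl, which frees fatty acids from lipoproteins, was highest at 1.42 (adjusted p = 0.367 by limma) and Dbi, the acyl-CoA binding protein, followed at 0.26. Of the 18 genes of beta-oxidation, the opposite process, 11 were below and 0 called, with a median of -0.01. They ran from -0.59 for Ehhadh and -0.54 for Acads to 0.37 for Cpt1a and 0.41 for Slc25a20.

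**Figure D4:**
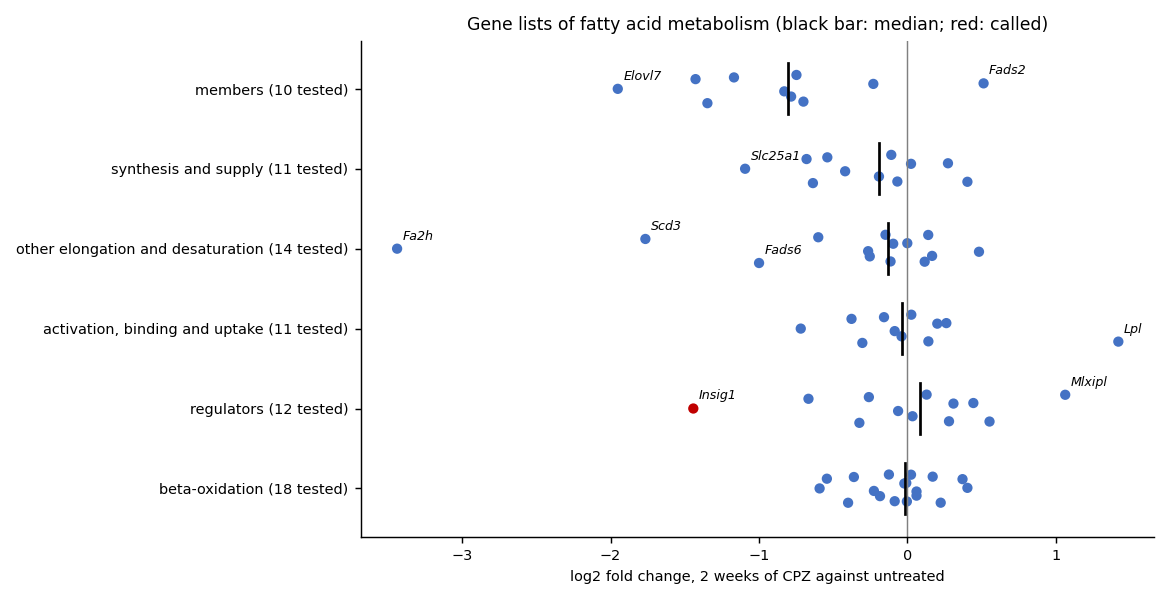
Log2 fold change at 2 weeks of CPZ against untreated (x axis) for the 10 members and the tested genes of 5 lists of fatty acid metabolism; 1 point per gene, black bar the list's median, red the called gene. The members' median is -0.81, the other medians lie between -0.19 and 0.08, and Insig1 is the only called gene.

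At 4 weeks the medians of these 5 lists were -0.01 for synthesis, 0.05 for other elongation and desaturation, 0.13 for activation, -0.10 for regulators and 0.15 for beta-oxidation, with 0 genes called in each. Beside them at 4 weeks, all 8 microglia and macrophage genes and all 6 choroid plexus and ependyma genes had means above untreated, with medians of 0.98 and 0.71. All 5 genes of the oligodendrocyte precursor list had means below untreated, with a median of -0.85, and all 5 overlapped it. Sox10, Bcas1 and Gpr17 stood at -1.25, -0.90 and -0.85, and Pdgfra and Cspg4 at -0.23 and -0.16. Of 7 astrocyte genes 5 were above untreated, and Slc1a3 (1.01) and Aldh1l1 (0.70) did not overlap it. None of these genes was called. Their part in the members' values and the number of precursor cells were not tested.

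When arrays were weighted by estimated quality, Scd1 (-1.53), Elovl1 (-1.16) and Elovl7 (-1.73) were called at 2 weeks, with adjusted p from 0.00399 to 0.0113 by limma. Calls over all probes were more frequent too, with 1514 of 27505 (5.5%) at 2 weeks in place of 53. The same 3 genes were called at 4 weeks, where 1815 probes (6.6%) were called in place of 45. Elovl1 and Elovl7 (1.32 and 1.61) were called for regular diet against 4 weeks, where 2218 of 27785 probes (7.98%) were called in place of 1. Over all alternatives the adjusted p of these 3 genes at 2 weeks reached 1. In the fit of untreated and CPZ arrays these weights put 7.74 on 2-week array 3 and 6.32 on 4-week array 4, and 0.67 or less on the other CPZ arrays. In the fit of all 16 arrays 4-week array 4 had a weight of 3.94 and regular diet arrays 4 and 5 had 3.39 and 3.92. Over the other alternatives and left-out arrays no member was called in any comparison.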

How the data were processed

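RNA from corpus callosum was hybridised to single-colour Agilent mouse arrays, and the authors deposited 1 scanner file per array with a linear intensity per spot (gProcessedSignal, background-subtracted by Agilent Feature Extraction 11.0.1.1 per the file headers). A value table was also deposited, in log2 units, which the authors scaled to each array's 75th percentile and centred on the median of the 3 controls. Its columns were used to match scanner files to samples, and as an alternative. All its sample columns were used.

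Spots of a probe were averaged without spots marked as outliers, log2 intensity was taken, and the array's log2 75th percentile subtracted. A probe entered a test where all arrays of some group read it well above background (27505 in the fit of 10 untreated and CPZ arrays, 27785 in that of 16). Tests used limma 3.58.1 in R 4.3.3 with Benjamini-Hochberg adjustment over all tested probes. A call needed an adjusted p under 0.05 and at least 2-fold. The study's methods name another test, which was run as an alternative. It was run without splitting the regular diet arrays by time, whereas the study treated 2 and 14 days as separate conditions. Its counts here are therefore not those of the study, which reported differentially expressed genes at both CPZ times. A gene was read through its brightest tested probe. Symbols came from RefSeq through the probe's accession and named 66.7% of probes. The methods and the file headers give different versions of the scanning software.

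The members and gene lists were chosen with earlier results of these data known. Named in the lists are genes called in any comparison and the 2 lowest and 2 highest at 2 weeks, and for each member its 3 closest genes. Alternatives were normexp correction (offset 50, on median rather than mean spot signals), quantile and median scaling, other filters, probes, fits, slide and replicate blocks, array weights, the recorded array assignment, and each array left out. Counts of members below or separated from untreated, and the alternatives for Insig1, were added after seeing the data. The number of arrays limits the precision. The model fits were tested on simulated data. Marker lists of neurons, astrocytes, oligodendrocyte precursors, endothelium, red blood cells, and fat and muscle had medians at 2 weeks of -0.30, 0.34, -0.45, -0.10, -0.15 and -0.58, the last from 1 tested gene of 5, since the defining fat and muscle genes were otherwise not well above background. None of these genes was called.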

Additional observations from a re-analysis of the deposited data

Results flagged for a closer look

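Elovl1 on 4-week array 3 read 2.50, while the other 3 arrays of that group lay between 1.89 and 1.91. The gap to the nearest of the others was 0.969 of the group's whole range. That array also had the highest summed levels of its group for choroid plexus and ependyma genes (5.70), myelin genes (8.56), oligodendrocyte precursor genes (6.35) and microglia and macrophage genes (6.85), and their part in the Elovl1 reading was not tested. It was 1 of 30 sets of arrays examined (15 probes in the 4-week and the regular diet groups), and chance alone flags about 1 in 20.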

How the results depend on the processing

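The count of members called stayed at 0 in all comparisons under each alternative except array weights, which gave 3 at 2 weeks, 3 at 4 weeks and 2 (Elovl1 and Elovl7) for regular diet against 4 weeks. Over all alternatives the adjusted p of Elovl1 at 2 weeks ran from 0.00399 to 1. The members below untreated stayed at 9 at 2 weeks and 8 or 9 at 4 weeks, except with arrays as recorded, at 1 and 4. On regular diet they numbered 9, but 10 with arrays as recorded and 5 with array weights. The members fully below untreated numbered 6 to 9 at 2 weeks when an array was left out (10.8 to 16.1% of all genes), 5 to 7 at 4 weeks (4.67 to 16.1%) and 1 to 2 on regular diet (3.78 to 9.95%; 2 without untreated replicate 3 or regular diet replicate 6). The share of all genes without any array left out was 8.64, 4.44 and 3.49%. With arrays as recorded they were 0, 0 and 0 (2.66, 4.35 and 2.71% of all genes). At 2 weeks normexp gave 4 (7.78% of all genes) and median scaling 7 (9.2%). At 4 weeks normexp gave 2 (4.37%), median scaling 0 (2.03%) and quantile scaling 7 (4.58%), and on regular diet normexp and quantile scaling gave 0 (6.58 and 3.31%). Median scaling moved the median of all genes by -0.16 at 2 weeks, 0.12 at 4 weeks and -0.18 on regular diet, and normexp by -0.12 and -0.15 at 2 weeks and on regular diet. Called probes over the whole array were 53 at 2 weeks and 45 at 4 weeks, 1514 and 1815 with array weights, 109 and 477 with slide as a fixed block, 311 and 417 with slide as a random block, 96 and 52 with normexp, 67 and 20 with quantile scaling, 29 and 38 with median scaling, 46 and 12 with no filter, 87 and 64 with the filter on every array, 0 and 216 in fits of the 2 groups compared, 27 and 3 in the fit of all 4 groups, and 0 and 0 with the methods' test or arrays as recorded. For regular diet against untreated and against 4 weeks they were 222 and 1, 687 and 2218 with array weights, 41 and 0 with normexp, 163 and 323 with quantile scaling, 128 and 1274 with median scaling, 182 and 8 with no filter, 115 and 0 with the filter on every array, 265 and 0 with slide as a fixed and 327 and 8 as a random block, 24 and 0 with the replicate block, 157 and 49 in fits of 2 groups, 13 and 5 with the methods' test, and 0 and 0 with arrays as recorded. Between 4 and 2 weeks the 3 called probes became 1775 with array weights, 58 in the fit of all 4 groups, 24 in that of 2, 52 without untreated array 1, 11 without untreated array 3 or 2-week array 3, and 0 to 5 otherwise. Leaving out 1 array gave 8 to 75 at 2 weeks (8 to 16 without any untreated array, 2-week array 1 or 3, or 4-week array 4) and 0 to 186 at 4 weeks (0 without 2-week array 3 or 4-week array 1, 3 or 4, 1 to 21 without untreated array 2 or 3 or 2-week array 1, 100 without 2-week array 2, 186 without 4-week array 2). On regular diet against untreated the 222 called probes became 5 without untreated array 3, 66 and 106 without the other untreated arrays, 126 without regular diet array 1 and 159 to 240 otherwise, and against 4 weeks the 1 called probe became 1550 without 4-week array 1, 1305 without untreated array 1, 348 without 4-week array 3 and 0 to 13 otherwise. The cause of these changes was not tested. The methods' test did not split the regular diet arrays by time as the study did, so its counts are not the study's.

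Replicate numbers did not pair the untreated and CPZ arrays, since same-numbered pairs correlated between -0.809 and 0.206 and 3 of 9 exceeded 0.1. Pairing of the regular diet arrays was not tested. With the replicate block called probes went from 53 and 45 to 0 and 0, members called stayed at 0, and signs turned at 4 weeks for Fads1 (0.04) and against 4 weeks on regular diet for Fasn (-0.09), Scd1 (-0.30), Scd2 (-0.15), Elovl5 (-0.01), Elovl6 (-0.21) and Acsl1 (-0.15).

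Signs also turned for these small differences. Between 4 and 2 weeks quantile scaling gave -0.02 for Scd2, -0.06 for Elovl1 and -0.03 for Acsl1, and array weights gave -0.04 for Elovl1, -0.05 for Acsl1, -0.05 for Fads1 and -0.12 for Fads2. For regular diet against untreated array weights gave 0.15 for Elovl1, 0.09 for Elovl5, 0.09 for Elovl6 and 0.04 for Elovl7. Fads1 at 4 weeks was 0.09 under median scaling and 0.04 with slide as a fixed block. For regular diet against 4 weeks median scaling gave -0.15 for Fasn, -0.01 for Scd1, -0.11 for Scd2, -0.20 for Elovl5, -0.14 for Elovl6 and -0.20 for Acsl1, and the slide block gave -0.03 for Elovl5. Leaving out arrays gave, between 4 and 2 weeks, -0.03 to 0.23 for Acsl1, -0.16 to 0.29 for Elovl1, -0.17 to 0.33 for Fads2 and -0.23 to 0.61 for Scd1, and at 4 weeks -0.20 to 0.25 for Fads1. Against 4 weeks on regular diet it gave -0.05 to 0.23 for Acsl1, -0.04 to 0.28 for Elovl5, 0 to 0.37 for Elovl6, -0.01 to 0.55 for Scd1 and -0.10 to 0.37 for Scd2.

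With arrays as recorded the 2-week values were 0.43 for Insig1, 0.29 for Fasn, 0.38 for Scd1, 0.33 for Scd2, 0.48 for Elovl1, 0.09 for Elovl5, 0.48 for Elovl6, 0.99 for Elovl7, 0.25 for Acsl1, 0.07 for Fads1 and -0.44 for Fads2. At 4 weeks they were 0.29 for Fasn, 0.02 for Scd2, 0.44 for Elovl1, 0.18 for Elovl6, 0.29 for Elovl7, 0.02 for Acsl1 and -0.48 for Fads2. Between 4 and 2 weeks they were 0 for Fasn, -0.52 for Scd1, -0.31 for Scd2, -0.05 for Elovl1, -0.13 for Elovl5, -0.31 for Elovl6, -0.70 for Elovl7, -0.22 for Acsl1, -0.30 for Fads1 and -0.04 for Fads2. On regular diet Fads2 was -0.15 against untreated. Against 4 weeks the values were -0.36 for Fasn, -1.02 for Scd1, -0.81 for Scd2, -1.19 for Elovl1, -0.45 for Elovl5, -0.30 for Elovl6, -1.42 for Elovl7, -0.39 for Acsl1 and 0.32 for Fads2.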
